A study of Mus musculus with 6 samples.

Results

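Chromatin accessibility was read at 9 genes of the YAP and TAZ pathway: the coactivator genes Yap1 and Wwtr1 (which encodes TAZ), the DNA-binding partner genes Tead1, Tead3 and Tead4, the pathway regulators Amotl2, Lats2 and Ajuba, and Ankrd1, a classical target. The genes were taken by name from the 21938 protein-coding genes of the GENCODE M21 annotation of GRCm38. Start windows and tiles were measured for each. A start window covered 1 kb on each side of an annotated start, and starts of a gene within 1 kb of each other shared a window, which gave 20 windows of 32991 in all. Tiles of 500 bp covered each gene body and 50 kb on each side, and 912 of the 443384 open tiles of the genome belonged to these genes.

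YAP and TAZ do not bind DNA themselves and act on genes through TEAD factors, which recognise the sequence CATTCC. The Hippo kinase LATS2 phosphorylates YAP and TAZ and keeps them out of the nucleus, the angiomotin-like protein AMOTL2 holds them at cell junctions, and the LIM-domain protein AJUBA restrains the LATS kinases. Several of these regulators are themselves switched on by YAP and TEAD, and Ankrd1, which encodes an ankyrin-repeat protein, is a common reporter of that activity.

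The cells were sorted to enrich horizontal basal cells (HBCs), the normally quiescent stem cells that line the basal lamina of the olfactory epithelium, and profiled by single-cell ATAC-seq on the 10x platform. All mice carried Krt5CreER and the reporter Rosa26 LSL-YFP/LSL-YFP, so YFP marks cells in which the Krt5 promoter drove the recombinase and the descendants of such cells. In all, 3 libraries came from uninjured controls and 3 from mice 24 h after intraperitoneal methimazole, an olfactory toxicant, with mice of 8 weeks in replicate 1, 6 weeks in replicate 2 and 6 to 7 weeks in replicate 3 of each group. The dorsal epithelium was dissociated, and YFP-positive cells that excluded propidium iodide were sorted. How many mice went into each library is not given in the labels.

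Between 420 and 1338 barcodes per library had at least 2000 fragments and were kept, with 14825320 to 44875242 cut sites (fragment ends) per library. Uninjured and injured replicate 3 shared 34 of these barcodes, 5.405% of the smaller library, where the other pairs of libraries shared at most 4. In those barcodes 82002 fragments were identical in the 2 libraries, 5.975% of those of uninjured replicate 3, against 0.007% for mismatched barcodes. Leaving these barcodes out kept the 3 start windows called below. HBC-like clusters held 2683 of the 4476 kept barcodes, and the others fell into the classes described with the clusters. The HBC-like share was 73.8%, 67.9% and 52.3% of the barcodes of uninjured replicates 1 to 3 and 74.3%, 60.7% and 22.3% of injured replicates 1 to 3, so injured replicate 3 stood apart. All 8 HBC marker genes were detected at their starts, with summed levels of 152 to 203 cut sites per 1000000 (CPM) in uninjured and 130 to 170 in injured libraries. Summed sustentacular (supporting) cell markers lay at 66.1 to 69.6 CPM in uninjured and 33.9 to 43.6 CPM in injured libraries, and immune markers at 7.08 to 7.80 and 9.22 to 11.8 CPM, without overlap. Of the 7 sustentacular genes edgeR called 2 lower, Cbr2 (45.9 to 28.2 CPM), the largest part of the sum, and Ermn (12.4 to 4.76 CPM). At Ugt2a1, Cyp1a2 and Gpx6 the groups overlapped. Of the 8 HBC genes 1 was called lower, Icam1 (log2 change -0.71, adjusted p = 0.0186), and no immune gene was called. Over all tested start windows 2.34% were called lower. Mature olfactory neuron markers lay at 42.6 to 53.1 and 33.6 to 68.1 CPM, with injured replicate 3 highest.

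The regions on which most of the findings turn lay away from the starts. In 7 members a tile with a mean of at least 2 CPM and separate groups was called higher, and the densest 200 bases of the one with the largest log2 gain are shown first for 6 of them. The Lats2 tile is not shown and holds neither of the sequences searched in its full 500 bp. In each of these 7 members a less open called tile, below 2 CPM on average, had a larger log2 gain. The gains are followed by 2 intronic stretches that lost accessibility. They are reference sequence of GRCm38 on the plus strand. Capitals mark the AP-1 sequence TGANTCA and the TEAD sequence CATTCC or its reverse complement GGAATG, and a stretch without capitals holds neither.
Wwtr1, gain, intron, chr3:57502001-57502200: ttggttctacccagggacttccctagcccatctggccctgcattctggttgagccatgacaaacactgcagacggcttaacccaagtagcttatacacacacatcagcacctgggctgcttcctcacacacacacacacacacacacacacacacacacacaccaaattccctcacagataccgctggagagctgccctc
Tead1, gain, intron, chr7:112703501-112703700: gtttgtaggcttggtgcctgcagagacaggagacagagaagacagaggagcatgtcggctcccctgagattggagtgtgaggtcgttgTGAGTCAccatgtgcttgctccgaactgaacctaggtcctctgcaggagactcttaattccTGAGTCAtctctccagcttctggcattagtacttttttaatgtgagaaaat
Tead3, gain, upstream, chr17:28375752-28375951: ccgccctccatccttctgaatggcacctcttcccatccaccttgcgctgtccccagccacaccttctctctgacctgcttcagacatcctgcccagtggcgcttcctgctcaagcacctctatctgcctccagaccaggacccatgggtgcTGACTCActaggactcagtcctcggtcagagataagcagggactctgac
Tead4, gain, intron, chr6:128296501-128296700: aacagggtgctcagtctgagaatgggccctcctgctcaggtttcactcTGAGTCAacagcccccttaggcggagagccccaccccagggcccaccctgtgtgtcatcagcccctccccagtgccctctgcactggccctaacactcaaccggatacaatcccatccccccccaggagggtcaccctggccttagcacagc
Amotl2, gain, downstream, chr9:102737501-102737700: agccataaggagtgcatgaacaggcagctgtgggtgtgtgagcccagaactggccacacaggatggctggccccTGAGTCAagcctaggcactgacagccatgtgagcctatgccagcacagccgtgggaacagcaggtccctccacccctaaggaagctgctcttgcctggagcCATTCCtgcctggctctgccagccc
Ankrd1, gain, upstream, chr19:36129300-36129499: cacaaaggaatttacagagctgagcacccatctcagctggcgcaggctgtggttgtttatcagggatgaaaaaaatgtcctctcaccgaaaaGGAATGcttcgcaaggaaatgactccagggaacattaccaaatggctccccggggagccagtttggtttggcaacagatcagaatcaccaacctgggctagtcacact
Tead1, loss, intron, chr7:112680801-112681000: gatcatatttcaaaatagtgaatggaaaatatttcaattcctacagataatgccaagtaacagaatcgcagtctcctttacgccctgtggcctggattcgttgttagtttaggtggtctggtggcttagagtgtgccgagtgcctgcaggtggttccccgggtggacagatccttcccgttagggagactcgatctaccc
Amotl2, loss, intron, chr9:102726301-102726500: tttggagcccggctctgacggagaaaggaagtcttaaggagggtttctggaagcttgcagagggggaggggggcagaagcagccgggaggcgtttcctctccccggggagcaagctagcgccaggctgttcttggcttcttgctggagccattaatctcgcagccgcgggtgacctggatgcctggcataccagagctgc

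Among the gains, the Tead1, Tead3, Tead4 and Amotl2 stretches hold AP-1 sequences, and those of Amotl2 and Ankrd1 hold a TEAD sequence. The Amotl2 stretch carries both, and the Wwtr1 stretch carries neither and includes a run of CA repeats. That Wwtr1 stretch starts at the edge of its tile, beside another tile called higher. TGANTCA was present in 5 of the 8 Wwtr1 gains, against 61% of all gains genome-wide. Neither of the stretches that lost accessibility holds either sequence, but the full 500 bp of the Amotl2 loss holds 1 TEAD sequence outside the bases shown. The full Tead3 gain tile likewise holds 2 AP-1 sequences and 1 TEAD sequence.

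The starts of the genes carry TEAD sequences too. RefSeq promoters of 300 bases (GRCm38.p6, 250 before the start and 50 after it) were at hand for 7 of the 9 members, all but Tead1 and Tead4. In each of the 7 genes at least 1 promoter held CATTCC on either strand, in 9 of 11 promoters (81.82%), some of which overlap, against 4817 of 32851 promoters of all genes (14.66%). None of the 11 held TGANTCA, which was present in 7.81% of all promoters. Since several members are known targets of TEAD factors, the high share is not independent of why such genes are studied. Every match upstream of a start is shown on the strand of the gene in 30 bases, with each hexamer in capitals. One Tead3 stretch holds a pair of hexamers. In Lats2 the match lay at base 5 from the start, and a further Tead3 match at base 3.
Yap1, chr9:8004720-8004749: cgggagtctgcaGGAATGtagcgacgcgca
Wwtr1, chr3:57576029-57576058: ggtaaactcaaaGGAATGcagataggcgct
Tead3, distal, chr17:28350970-28350999: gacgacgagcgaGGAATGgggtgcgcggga
Tead3, proximal pair, chr17:28350697-28350726: gctCATTCCgtaCATTCCggccatccccct
Amotl2, chr9:102717727-102717756: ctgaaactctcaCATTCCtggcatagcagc
Ajuba, distal, chr14:54577830-54577859: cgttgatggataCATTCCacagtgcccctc
Ajuba, proximal, chr14:54577808-54577837: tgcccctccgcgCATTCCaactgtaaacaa
Ankrd1, distal, chr19:36120037-36120066: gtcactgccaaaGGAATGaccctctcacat
Ankrd1, proximal, chr19:36119950-36119979: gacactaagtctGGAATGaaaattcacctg

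At the starts, the question was whether injury opened or closed these genes. Accessibility fell at the starts of Tead1, Tead3 and Lats2, by log2 changes of -0.56, -0.49 and -0.50, and no member start was called higher. Of 20 windows 19 passed the filter on low counts, 3 of them (15.79%) were called lower at an adjusted p under 0.05 and 0 higher, against 2.34% lower and 2.47% higher of the 24618 start windows tested. At an unadjusted p under 0.05 edgeR gave 7 lower and 1 higher, against 12.1% and 10.2% of all windows, and DESeq2 called 4 lower and 0 higher, against 3.53% and 3.86% of all windows. The median log2 change was -0.19, against 0.01 over all windows. The most open window of each member but Ankrd1 lay at percentile 65.9 to 95.1 of mean CPM. Windows of like openness were not compared separately, so neither the shares nor the medians are read as particular to these genes. The levels are sums over all sorted cells of a library, in which fewer cells of a type and less accessibility per cell cannot be told apart.

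**Figure D1:**
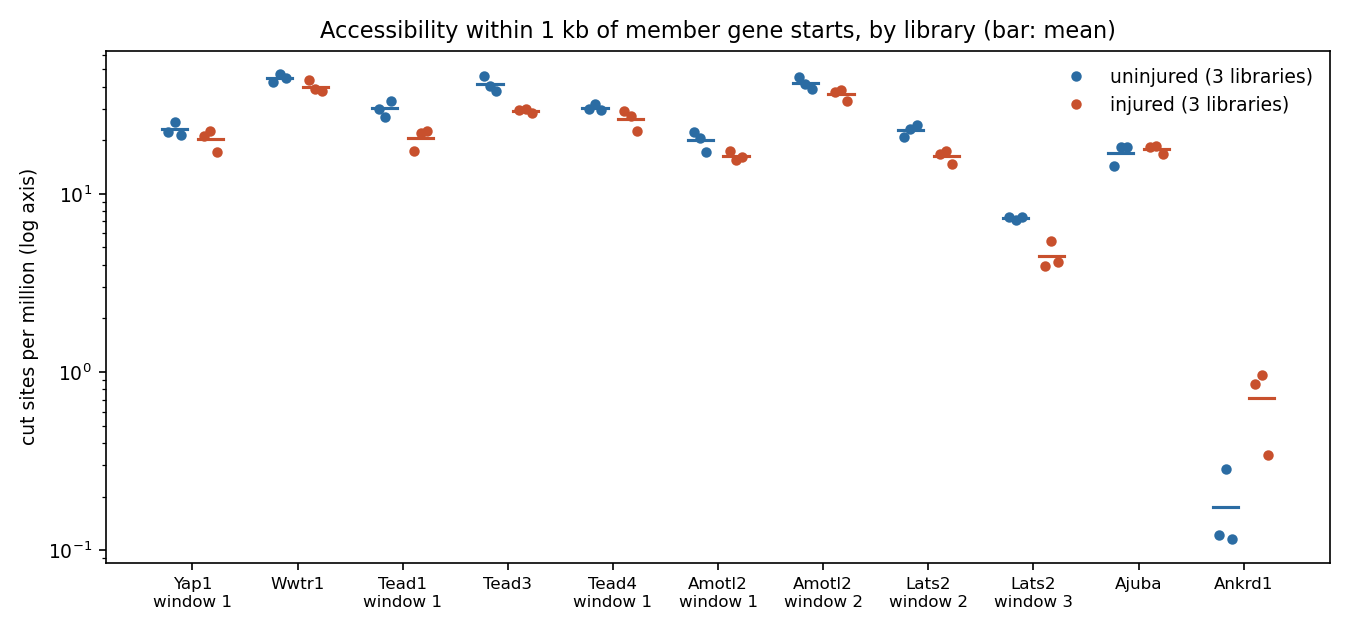
CPM (log axis) within 1 kb of the starts of the member genes in each of the 6 libraries, with group means as bars. Injured libraries are lower without overlap at 6 windows, the called Tead1 window 1, Tead3 and Lats2 window 2 and the uncalled Tead4 window 1, Amotl2 window 2 and Lats2 window 3, as at 14.8% of all tested windows. At Ankrd1 they are higher without overlap, at a level below 1 CPM.

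Both coactivator genes had open starts in every library, and neither was called. At the Yap1 start (chr9:8003596-8005596) the uninjured libraries had 22.3, 25.2 and 21.4 CPM and the injured ones 21.1, 22.5 and 17.2 CPM. The groups overlapped, and the log2 change was -0.19 (SE 0.115, adjusted p = 0.367), with an interval from -0.43 to 0.06. At Wwtr1 (chr3:57574910-57576910), the most open member start, the values were 42.2, 47.0 and 44.7 CPM before and 43.4, 38.8 and 37.6 CPM after injury. These also overlapped, and the log2 change was -0.16 (SE 0.081, adjusted p = 0.255). A second Yap1 start, 2893 bp downstream of the first, was far less open, at 2.42 ± 1.13 and 1.55 ± 0.623 CPM (SD, n = 3 each), and was not called.

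Among the TEAD genes, Tead1 and Tead3 fell and Tead4 was not called. At the first Tead1 start (chr7:112678318-112680318) uninjured libraries had 30.1, 26.9 and 33.4 CPM and injured ones 17.4, 22.0 and 22.4 CPM. Every injured library lay below every uninjured one, and the log2 change was -0.56 (SE 0.115, adjusted p = 0.0172). At Tead3 (chr17:28349817-28351817) the values were 45.6, 40.5 and 37.9 CPM before and 29.7, 29.9 and 28.4 CPM after injury. The injured libraries lay close together and below all controls, with a log2 change of -0.49 (SE 0.084, adjusted p = 0.00683). Tead4 (chr6:128299823-128301823) read 29.7, 32.0 and 29.6 CPM before and 29.0, 27.3 and 22.4 CPM after injury. Its groups did not overlap either, but the log2 change of -0.22 (SE 0.101) had an adjusted p of 0.22. The 3 further Tead1 starts and the other Tead4 start lay inside the gene bodies at 0.388 to 2.31 CPM in the group means and were not called.

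Of the regulators, Lats2 fell, and Amotl2 and Ajuba were not called. Lats2 has 5 start windows, and the most open is the second (chr14:57745123-57747123), where uninjured libraries had 20.8, 23.0 and 24.4 CPM and injured ones 16.8, 17.3 and 14.6 CPM. The groups were separate, with a log2 change of -0.50 (SE 0.107, adjusted p = 0.0203). The third window, which overlaps the second, had 7.43, 7.11 and 7.41 CPM against 3.91, 5.42 and 4.14 CPM and a log2 change of -0.71 that missed the threshold (SE 0.214, adjusted p = 0.0725). Both also overlap the gene model Gm49361, and the other Lats2 starts were nearly closed, with 1 not tested. The main Amotl2 window (chr9:102717429-102719429) read 45.3, 41.5 and 38.5 CPM before and 37.3, 38.2 and 33.3 CPM after injury. That separation came with a log2 change of only -0.20 (SE 0.085, adjusted p = 0.183), and the window 1757 bp upstream, which overlaps it, gave -0.29 (SE 0.116, adjusted p = 0.164). Ajuba (chr14:54576558-54578558), which encodes the LATS inhibitor, read 14.3, 18.3 and 18.3 CPM before and 18.2, 18.5 and 16.8 CPM after injury. Its log2 change was 0.06 (SE 0.118, adjusted p = 0.801).

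Ankrd1 was the one member start with higher values after injury in every library, but at a very low level. Its window (chr19:36119099-36121099) held 2, 10 and 4 cut sites in uninjured and 34, 20 and 12 in injured libraries. This corresponds to 0.174 ± 0.0966 and 0.718 ± 0.330 CPM (SD, n = 3 each), at percentile 9.5 of all tested windows. The groups did not overlap, as was so for 13.1% of all tested windows in this direction, and the log2 change of 1.95 (SE 0.666, interval 0.52 to 3.38) had an adjusted p of 0.104. It was called when clusters 3 and 5, described below, were added to the HBC-like ones (log2 change 2.74, adjusted p = 0.0403), a choice made after the clusters were seen.

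The changes at Tead1, Tead3 and Lats2 were as large among HBC-like barcodes alone. There the log2 changes were -0.60 (SE 0.131, adjusted p = 0.00476), -0.53 (SE 0.107, adjusted p = 0.0023) and -0.59 (SE 0.122, adjusted p = 0.00292), and window 3 of Lats2 was also called (-0.83, SE 0.255, adjusted p = 0.0345). HBC-like barcodes came mostly from clusters 1, 7, 10 and 13 in uninjured and clusters 2 and 4 in injured libraries. They are part of the barcodes fitted above, so this fit is not separate evidence. For the sustentacular and immune markers, which moved with the groups, their part in the result was not tested otherwise. Tead3 kept its call in every alternative tried. Tead1 lost it without injured replicate 1 (adjusted p = 0.0737), injured replicate 2 (0.0598) or uninjured replicate 1 (0.071) and with windows of 500 bp each side (0.0525). Lats2 lost it without injured replicate 1 (0.0687), injured replicate 2 (0.0614), uninjured replicate 2 (0.0802) or uninjured replicate 3 (0.05).

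**Figure D2:**
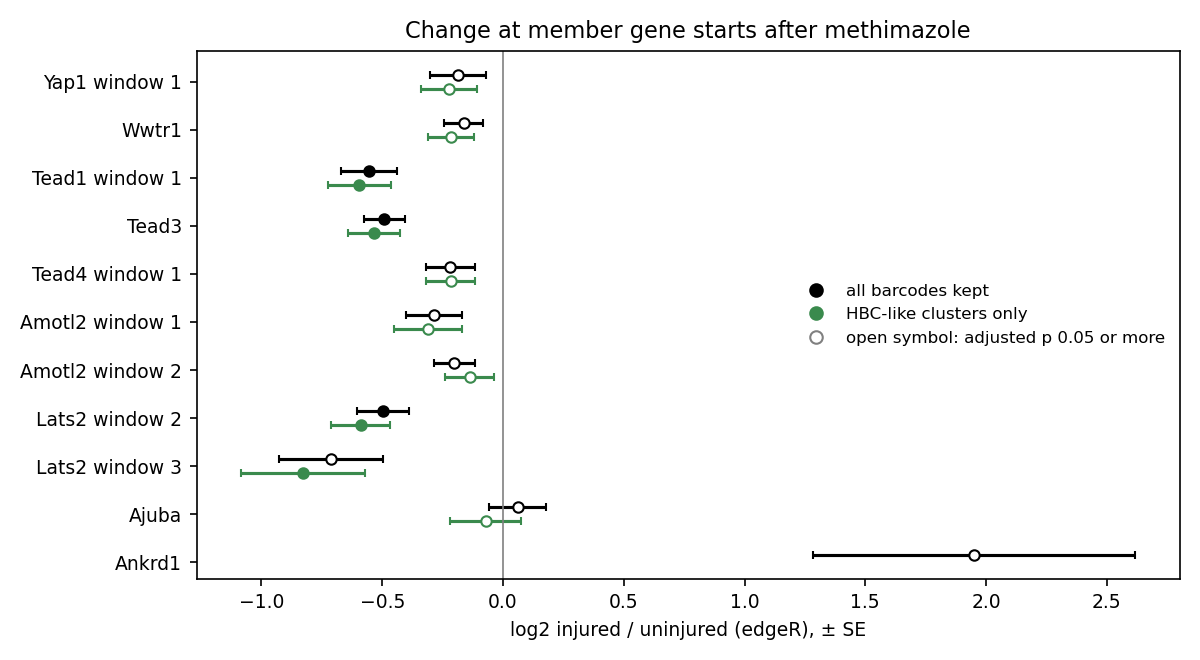
Log2 change (injured over uninjured, with its SE) at the member starts for all kept barcodes (black) and HBC-like clusters only (green), with filled symbols for an adjusted p under 0.05. Tead1 window 1, Tead3 and Lats2 window 2 are filled in both, and Lats2 window 3 in HBC-like clusters only.

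The size of these falls depends on what is held constant between libraries. TMM scaling over the start windows, used above, puts the median of all windows at a log2 change of 0.01. Scaling by total cut sites moved that median to -0.24 and scaling by 10 kb bins to -0.50, and then 9 (47.4%) and 11 (57.9%) of the 19 member windows were called lower, against 28.8% and 45.4% of all windows. In the other direction edgeR then called 2.8% and 1.87% of all windows and no member window. Under those scalings Tead3 changed by -0.75 and -1.01 and Lats2 by -0.75 and -1.01.

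Over the tiles, called gains outnumbered called losses, and the gains lay away from the starts. Of the 912 open tiles of the members 826 were tested, 37 (4.48%) were called higher and 14 (1.69%) lower after injury, against 4.84% and 1.66% of the 397121 tiles tested genome-wide. These shares are near the background, so the counts do not set these genes apart. An open tile needed a mean of 0.2712 CPM over all libraries together. Several gains had an uninjured mean below that, down to 0.03 CPM at Wwtr1, among them the only Ajuba gain. They passed the filter through their injured libraries, and some losses likewise passed through their uninjured ones. The counts of gains and losses thus depend in part on this filter, which acted on all tiles. Over all 826 tested member tiles the balance leaned the other way, with 374 positive and 452 negative log2 changes and a median of -0.08, against -0.02 over all tiles. The groups did not overlap at 96 member tiles that were higher, all 37 called gains among them, and at 115 that were lower. Genome-wide 13.5% of tested tiles were higher without overlap and 11.9% lower. Of the gains 18 lay in the members' gene bodies, 15 of them in introns only, and 19 outside, some of them in other genes. The nearest was 2.1 kb from the 5′-most start, and the median distance was 24.4 kb. None lay within 1 kb of the centre of a protein-coding start window, which is the 5′-most of the starts that share it. Of the 14 losses 7 lay within 1 kb of such a centre of the member itself, at Tead1, Tead3 and Lats2. Distances to the other starts that share a window were not measured. How many of all tested tiles, or of all gains and losses genome-wide, lie that near a start was not counted. The positions are therefore not read as particular to these genes. With the other scalings the split of 37 higher and 14 lower became 35 and 23 (total cut sites) or 24 and 48 (10 kb bins). The shares of all tiles then were 4.48% and 2.48%, or 3.33% and 5.03%, so the members' split moved with that of all tiles. Leaving out injured replicate 2 left 5 and 1, injured replicate 1 left 10 and 4, uninjured replicate 1 left 17 and 1 and uninjured replicate 2 left 19 and 2, while leaving out injured replicate 3 gave 57 and 23. The counts over all tiles moved too, from 19235 and 6604 to 4343 and 491 without injured replicate 2 and to 33067 and 10636 without injured replicate 3.

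**Figure D3:**
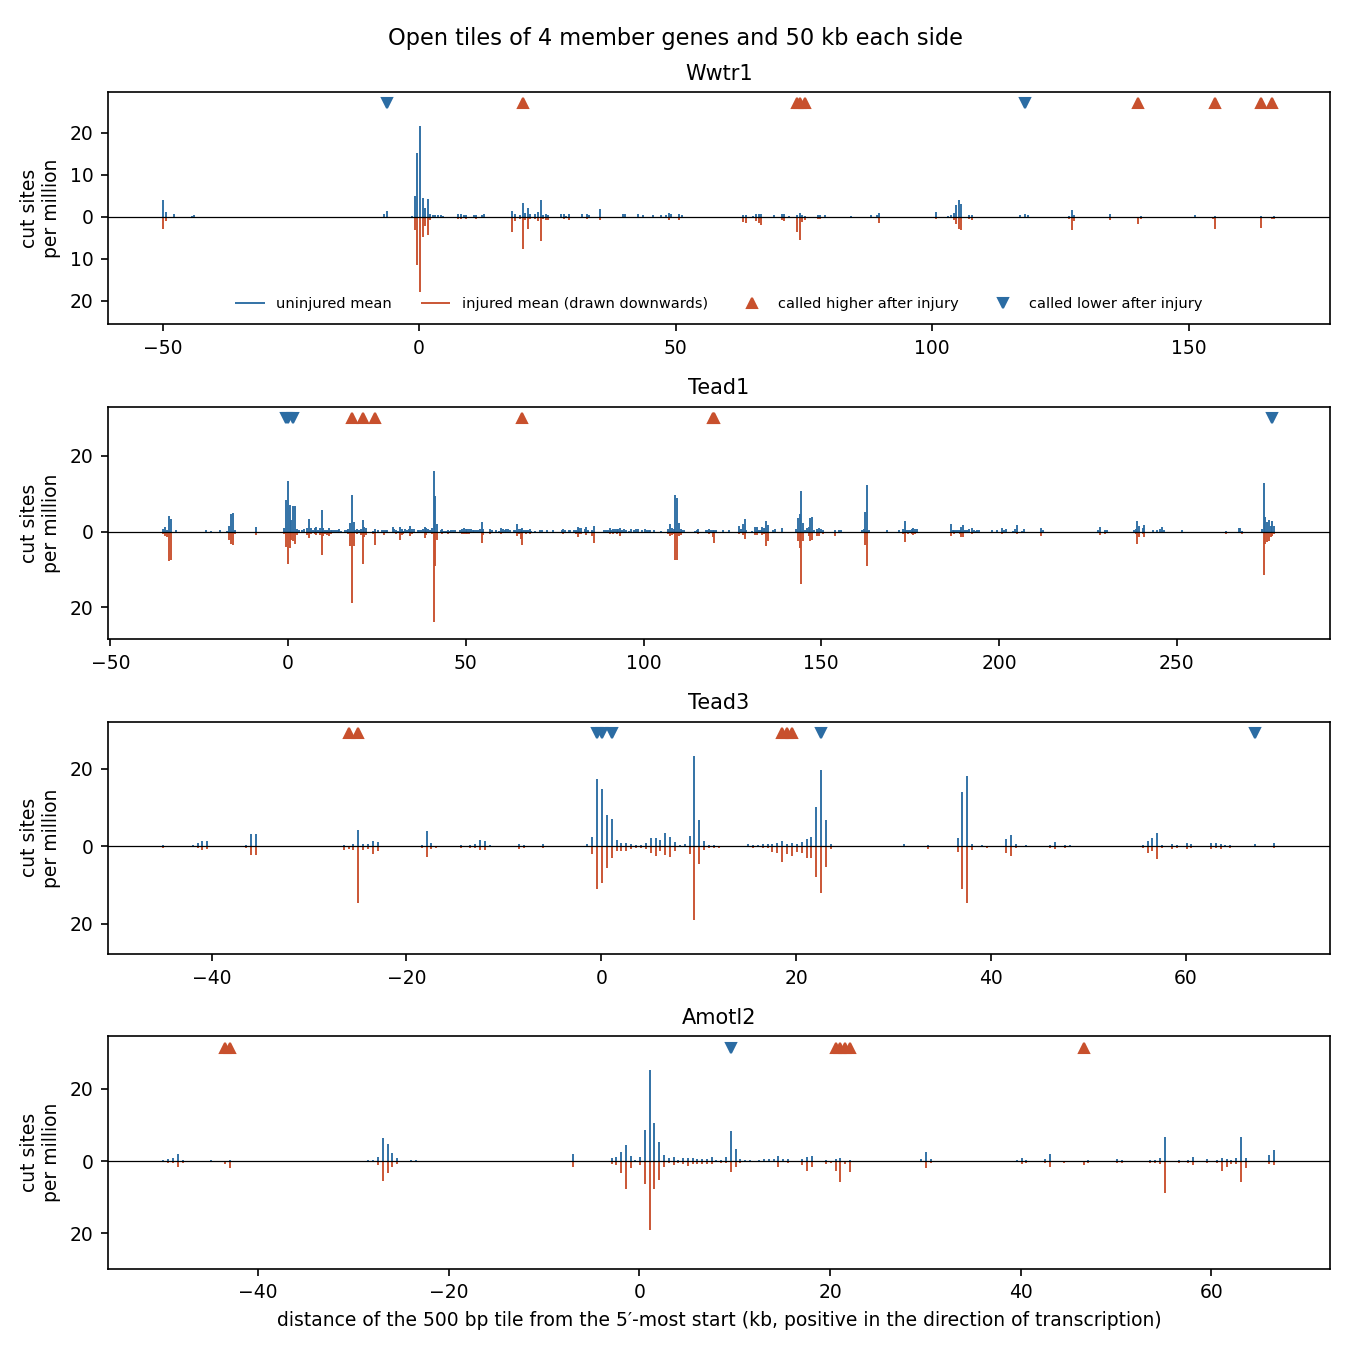
Mean CPM in open 500 bp tiles of Wwtr1, Tead1, Tead3 and Amotl2 and 50 kb on each side, uninjured drawn upwards and injured downwards, against distance from the 5′-most start. Triangles mark called tiles: gains lie away from the starts, and losses sit at the starts of Tead1 and Tead3.

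The largest named gain was in the coactivator gene Wwtr1. A tile in its intron, 73.7 kb from the start (chr3:57502001-57502500, the first sequence above), had 0.774, 0.479 and 0.120 CPM in uninjured and 5.20, 4.28 and 1.63 CPM in injured libraries. Injured replicate 3 was the lowest of the injured libraries and still above all controls, and the log2 change was 3.12 (SE 0.599, adjusted p = 0.0126). Its call was lost without injured replicate 2 (adjusted p = 0.073) or uninjured replicate 2 (0.051). The adjoining tile, which touches an exon, rose from 0.793 ± 0.571 to 5.51 ± 3.14 CPM (SD, n = 3 each). Wwtr1 had 8 gains and 2 losses among 95 tested tiles, and 4 of the gains lay past the 3′ end of the gene, 140.2 to 166.2 kb from its start. There the tile with the largest log2 change (5.43, SE 0.836, adjusted p = 0.00539) overlaps another gene, Tm4sf4. It held 0, 1 and 2 cut sites in uninjured libraries against 121, 34 and 23 in injured ones. A fitted fold at counts this low depends on the prior count of the fit.

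Yap1, the other coactivator gene, had no tile called by edgeR among 101 tested. At an unadjusted p under 0.05 edgeR gave 4 higher and 5 lower tiles there, against 11.8% and 8.07% of all tiles, and DESeq2 called 2 higher and 0 lower, against 6.43% and 1.89%. The median log2 change was -0.11. Its most open tile outside its own starts belongs to the neighbouring Cfap300 start and read 15.5 ± 2.54 CPM before and 13.4 ± 0.649 CPM after injury (SD, n = 3 each), with a log2 change of -0.21 (SE 0.142, adjusted p = 0.488). The difference between Wwtr1 and Yap1 was not tested.

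Tead1, a gene of 227490 bp with 280 tested tiles, had 6 gains and 4 losses. A loss 276.9 kb from the start overlaps Rassf10, and the 6 gains all lay in introns of Tead1. The named gain 24.4 kb into the gene (chr7:112703501-112704000) had 0.581, 0.958 and 0.421 CPM before and 5.13, 2.93 and 2.25 CPM after injury. It was separate between groups with a log2 change of 2.38 (SE 0.433, adjusted p = 0.0102), a call lost without injured replicate 1 (0.0503) or injured replicate 2 (0.0501). A far more open tile 17.9 kb into the gene rose from 9.56 ± 1.90 to 18.9 ± 5.99 CPM (SD, n = 3 each; adjusted p = 0.0222). The named loss, 1.4 kb into the gene (chr7:112680501-112681000), had 8.84, 6.83 and 4.87 CPM before and 2.50, 2.37 and 2.61 CPM after injury. Its injured libraries were nearly equal, and the log2 change was -1.44 (SE 0.251, adjusted p = 0.00832), a call lost without injured replicate 2 (0.0588) or uninjured replicate 1 (0.0607). At this gene tiles at and just after the start fell while tiles 17.9 to 24.4 kb into the gene rose.

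Tead3 had 5 gains and 5 losses among 99 tested tiles. Its upstream gain, 24.9 kb before the start (chr17:28375501-28376000), was the most open of the named gains, at 2.71, 3.11 and 6.59 CPM before and 20.2, 14.0 and 10.2 CPM after injury. The log2 change was 1.82 (SE 0.330, adjusted p = 0.0101), and without injured replicate 2 the adjusted p was 0.0541. A run of 3 adjoining tiles at the 3′ end of the gene, 18.6 to 19.6 kb from the start, were also called higher. The farthest of these overlaps Rpl10a, as does the loss 22.6 kb from the start, and Ppard overlaps the loss 67.1 kb from the Tead3 start. The named loss, in the first part of the gene, went from 7.09 ± 3.39 to 3.10 ± 0.169 CPM (SD, n = 3 each; log2 change -1.18, SE 0.306, adjusted p = 0.043), and uninjured replicate 1 was the highest of its controls at 10.8 CPM. Without that library its log2 change was -0.69 (adjusted p = 0.247). Its call was lost in 6 of 17 alternatives: also without injured replicate 1 (0.102), injured replicate 2 (0.159) or uninjured replicate 2 (0.12), with at least 5000 fragments per barcode (0.0547) and with 0.5 times the filter on mean CPM (0.0511).

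Tead4 had 6 gains and no loss among 59 tested tiles (5 lower at an unadjusted p under 0.05 in edgeR, 0 in DESeq2). A gain 44.9 kb upstream overlaps Tulp3, and the other 5 lay in introns of Tead4. The named one, 4.1 kb into the gene (chr6:128296501-128297000), had 6.07, 5.57 and 4.81 CPM before and 15.9, 12.6 and 7.39 CPM after injury. The controls were tight and every injured library lay above them, with a log2 change of 1.13 (SE 0.248, adjusted p = 0.0218). That call was lost in 5 of 17 alternatives: with 10 kb bin scaling (adjusted p = 0.0787) and without injured replicate 1 (0.0803), injured replicate 2 (0.103), uninjured replicate 2 (0.057) or uninjured replicate 3 (0.0572). The tile 2.6 kb into the gene rose from 0.347 to 2.65 CPM in the group means (adjusted p = 0.0106). At Tead4, as at Tead1, gains inside the gene stood beside a start that was not higher.

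The regulator Amotl2 had 7 gains, all outside the gene body, and 1 loss among 85 tested tiles. A run of 4 adjoining tiles 20.6 to 22.1 kb downstream of its first start, past the 3′ end, were called higher. The named one (chr9:102737501-102738000), whose densest stretch holds both sequences searched, had 0.516, 1.05 and 1.20 CPM before and 8.20, 6.47 and 2.92 CPM after injury. The log2 change was 2.61 (SE 0.417, adjusted p = 0.00631). The loss lay in an intron 9.6 kb into the gene (chr9:102726001-102726500), with 8.39, 10.4 and 6.62 CPM before and 3.56, 2.47 and 3.28 CPM after injury. The fall was separate between groups, with a log2 change of -1.44 (SE 0.229, adjusted p = 0.00616). Both named Amotl2 tiles kept their calls in every alternative tried.

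Lats2 had 2 gains and 2 losses among 46 tested tiles, and Ajuba 1 gain and no loss among 49 (1 lower at an unadjusted p under 0.05, and 1 by DESeq2). The named Lats2 gain, in an intron 27.6 kb from the first start (chr14:57730501-57731000), went from 1.12 ± 0.252 to 3.04 ± 0.621 CPM (SD, n = 3 each; log2 change 1.42, SE 0.326, adjusted p = 0.0259). This gain was not called with 10 kb bin scaling (adjusted p = 0.0736) or without injured replicate 1 (0.121), injured replicate 2 (0.117), uninjured replicate 1 (0.0809) or uninjured replicate 2 (0.0851). The named Lats2 loss covers the start of window 3 and went from 3.14 ± 0.745 to 1.39 ± 0.0943 CPM (log2 change -1.16, SE 0.305, adjusted p = 0.0448). This loss was no longer called in 9 of its alternatives, where its adjusted p reached 0.219. The Ajuba gain, 38.7 kb upstream and overlapping the gene Psmb5, went from 0.130 ± 0.114 to 1.00 ± 0.198 CPM (log2 change 2.73, SE 0.641, adjusted p = 0.0285). The most open tile near Ajuba is the start of Prmt5, which read 27.0 ± 3.19 before and 22.1 ± 3.37 CPM after injury (adjusted p = 0.266).

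Ankrd1, the target gene, had 2 gains and no loss among 12 tested tiles (0 lower also without adjustment and by DESeq2), the gains adjoining each other 8.7 and 9.2 kb upstream. The more open (chr19:36129001-36129500), whose stretch above holds GGAATG, had 1.16, 1.92 and 2.77 CPM before and 4.96, 5.21 and 4.78 CPM after injury. Injured libraries were close together and above all controls, with a log2 change of 1.32 (SE 0.303, adjusted p = 0.0259). Its call was lost with 10 kb bin scaling (adjusted p = 0.0844), without injured replicate 1 (0.0749), injured replicate 2 (0.117), uninjured replicate 1 (0.064) or uninjured replicate 2 (0.0818). Here the upstream tile and the start both had higher values after injury, though the start was not called.

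**Figure D4:**
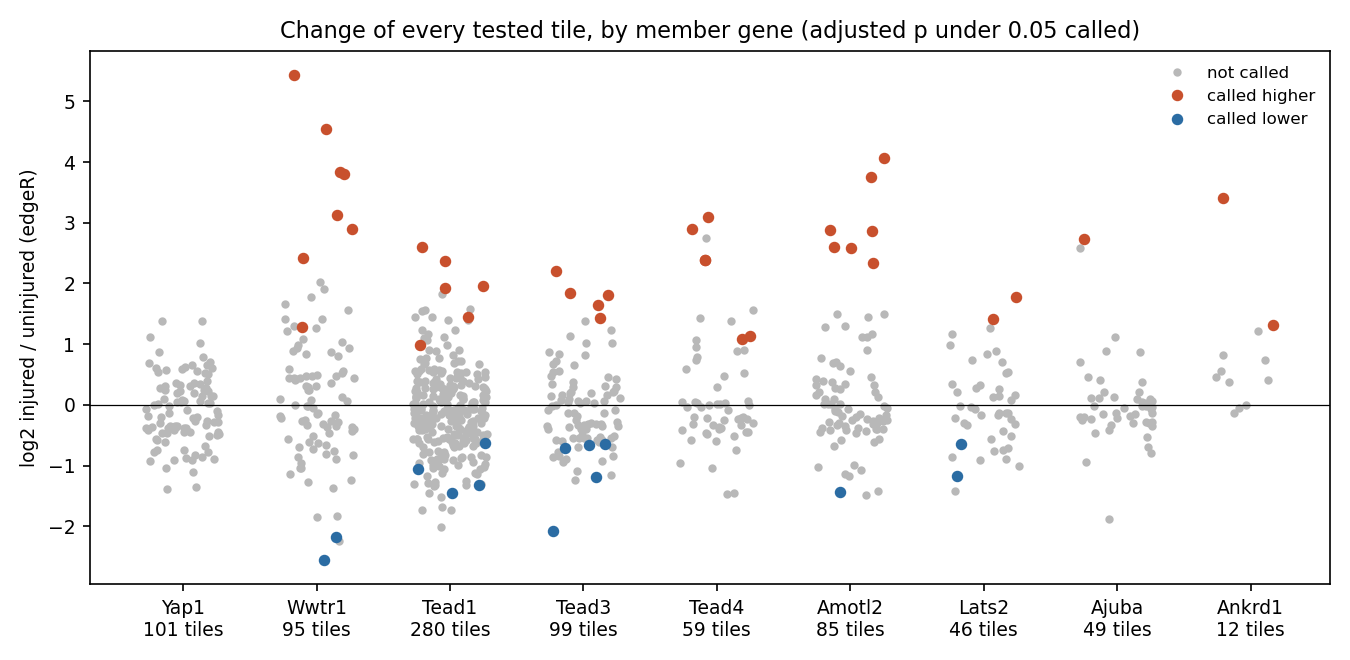
Log2 change (injured over uninjured) of every tested tile of each member gene, with called gains in orange and called losses in blue. Gains reach 5.43 at Wwtr1, in a tile that overlaps Tm4sf4, all 7 gains of Amotl2 exceed 2, and Yap1 has no called tile.

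The AP-1 sequence was more frequent in the gains than in the other tiles, at these genes as genome-wide. TGANTCA was present in 19 of the 37 member gains (51.4%), in 2 of 14 losses (14.3%) and in 125 of 775 uncalled tiles (16.1%). Genome-wide the same shares were 61%, 7.12% and 18.4%. CATTCC on either strand was in 15 of 37 gains (40.5%), 4 of 14 losses (28.6%) and 205 of 775 uncalled member tiles (26.5%), against 29.9%, 28% and 25.7% genome-wide. Both sequences together were in 7 member gains, 18.9%, and in 18.1% of all gains. A match describes the letters of the tile, not binding. The 2 sequences can share a pair of bases, so a tile with both may hold overlapping matches.

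The cells were then split by cluster to see in which cells these starts are open. Clustering on all accessibility used the same tiles, so the levels that follow are a description without a test. Levels are CPM within the class, over libraries with at least 20 barcodes of it. The HBC-like class had 2683 of 4476 barcodes, and clusters 3 and 5, led by accessibility at F2 and Depp1 and kept apart from it after they were seen, had 991, with 14.5%, 12.4% and 26.6% of uninjured and 19.3%, 20.5% and 40.8% of injured replicates 1 to 3. Olfactory neuron-like clusters had 380, a sustentacular-like cluster 106 (5, 68 and 32 in uninjured and 0, 0 and 1 in injured replicates), a deeper neuronal precursor-like cluster 102, and 214 barcodes stayed unnamed. Cluster 3 held 5, 6 and 5 barcodes of uninjured and 236, 70 and 226 of injured replicates. Cluster 5 held 61, 104 and 162 against 22, 16 and 78. Values of these clusters before and after injury therefore set mostly cluster 5 against mostly cluster 3. The marker lists do not separate cluster 3 from the HBC-like ones, and cluster 5 only narrowly. In cluster 3 too the HBC list was the highest, with a median log2 ratio to all other barcodes of 0.22, against 0.166 to 0.766 in the HBC-like clusters. In cluster 5 the airway secretory and ciliated list was the highest, at 0.164, and the HBC list lay at 0.111. No HBC marker stood among the 10 leading genes of an HBC-like cluster, and 167 of the 191 barcodes of cluster 7 came from uninjured replicate 3.

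The coactivator and TEAD starts were open in HBC-like cells, the F2- and Depp1-led clusters and sustentacular-like cells and, Tead1 aside, low in neuron-like cells. Yap1 ranged from 19.4 to 31.3 CPM over libraries in HBC-like cells and from 4.97 to 8.82 CPM in olfactory neuron-like cells, and lay at 23.3 CPM in sustentacular-like cells (2 libraries). Wwtr1 had 40.2 to 61.5 CPM in HBC-like and 0 to 11.8 CPM in neuron-like cells. Tead3 and Tead4 followed that order, with 40.8 and 31.7 CPM on average in HBC-like and 9.68 and 9.10 CPM in neuron-like cells. The neuron-like cells were lower in all 6 libraries at Yap1, Wwtr1, Tead3, Tead4, Ajuba and the main windows of Amotl2 and Lats2. Tead1 differed, with 26.0 CPM in HBC-like and 22.1 CPM in neuron-like cells and ranges (15.1 to 35.5 and 9.80 to 32.2 CPM) that overlapped, although neuron-like cells were lower in 5 of 6 libraries. The unnamed barcodes were lower still on average at Tead1 (9.05 CPM) and Tead4 (5.77 CPM), over 3 libraries that spread widely. The F2- and Depp1-led clusters were above HBC-like cells in 6 of 6 libraries at Tead1 (32.1 against 26.0 CPM on average) and Tead4 (39.6 against 31.7 CPM).

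**Figure D5:**
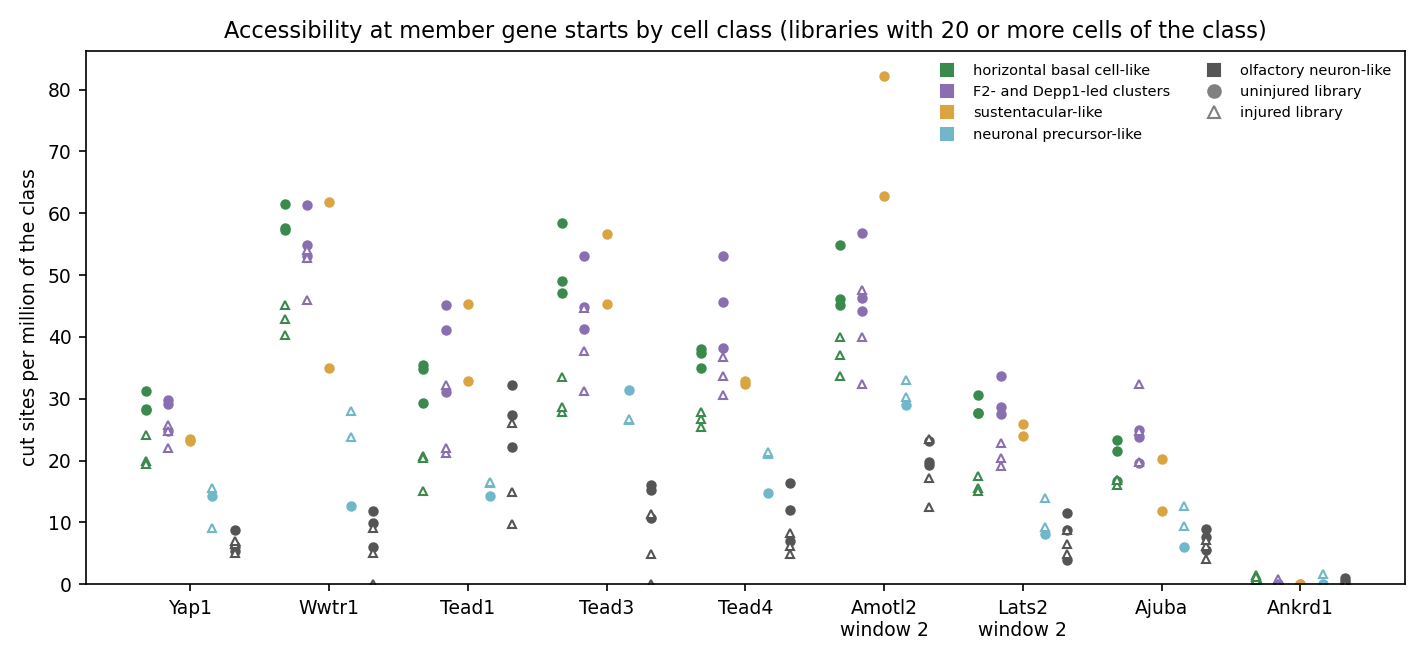
CPM at the most open start of each member gene by cell class, each point a library with 20 or more barcodes of the class (filled circles uninjured, open triangles injured). Neuron-like cells lie below HBC-like cells at most starts, while their Tead1 values overlap, and Ankrd1 is close to 0 in every class.

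Amotl2 stood highest in sustentacular-like cells, at 72.5 CPM over 2 uninjured libraries, against 48.7 ± 5.40 CPM in HBC-like cells of the 3 uninjured libraries. Ankrd1 was close to 0 in each class. In HBC-like cells its start held 0, 6 and 2 cut sites in uninjured and 20, 20 and 10 in injured libraries. The F2- and Depp1-led clusters held 8 cut sites there in all libraries together, although they were open at Wwtr1 (53.7 CPM on average) and Tead3 (42.1 CPM).

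At each of the 7 named gains HBC-like cells had higher values after injury, without overlap between the groups. These tiles were chosen because all barcodes together, of which HBC-like ones are a large part, gave a called gain and separate groups. At Wwtr1, Tead1, Amotl2, Lats2 and Ankrd1 the uninjured mean over all barcodes was below the 2 CPM asked for. The values are therefore a description and no further evidence of a gain. At the Wwtr1 intron tile HBC-like cells had 0.435, 0.329 and 0.132 CPM in uninjured and 6.29, 6.06 and 5.53 CPM in injured libraries, so injured replicate 3, the lowest over all barcodes, was close to the others within this class. The F2- and Depp1-led clusters had 2.26, 1.97 and 0.110 CPM against 0.770, 2.20 and 0.366 CPM there, with no separation. The Amotl2 downstream tile went from 0.945 ± 0.457 to 9.45 ± 0.786 CPM in HBC-like cells and 2.18 ± 0.960 to 1.88 ± 0.478 CPM in the F2- and Depp1-led clusters (SD, n = 3 each). At the Tead3 upstream tile HBC-like cells went from 4.00 ± 3.48 to 21.5 ± 3.07 CPM, with uninjured replicate 3 the highest control at 7.84 CPM. At the Tead4 intron tile they went from 6.17 ± 0.258 to 18.5 ± 2.65 CPM. The F2- and Depp1-led clusters started above the HBC-like cells at both tiles and read 9.08 ± 1.09 and then 7.63 ± 4.37 CPM at Tead3, and 11.1 ± 5.03 and then 7.77 ± 2.44 CPM at Tead4, with overlap.

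Other classes also had higher values after injury at some of these tiles. At the Ankrd1 upstream tile the F2- and Depp1-led clusters went from 2.37 ± 0.357 to 4.51 ± 1.50 CPM (SD, n = 3 each) without overlap, beside 1.71 ± 1.06 to 6.49 ± 1.41 CPM in HBC-like cells. In the same clusters the Tead1 tile went from 0.875 ± 1.24 to 2.02 ± 0.587 CPM and the Lats2 tile from 0.891 ± 0.475 to 1.70 ± 0.388 CPM, both with overlap. Neuronal precursor-like cells, with 1 uninjured and 2 injured libraries of 20 or more barcodes, read 0 and then 3.29 CPM on average at the Lats2 tile, where HBC-like cells went from 1.55 to 4.47 CPM. Their Tead1 and Amotl2 tiles also read 0 in that uninjured library and 2.46 and 2.29 CPM after injury. At the Wwtr1, Tead3 and Tead4 tiles these cells read 0.507, 2.54 and 2.54 CPM and then 3.01, 7.98 and 6.08 CPM. Only their Ankrd1 tile was lower, at 8.63 and then 5.46 CPM. These readings rest on few cut sites over the libraries used, from 12 at the Amotl2 and 13 at the Tead1 tile to 47 at the Ankrd1 tile. The uninjured library had only 20 barcodes of this class, so no change is read for it.

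At the 4 named losses, chosen in the same way, HBC-like cells had lower values after injury without overlap, such as 9.85 ± 5.33 and then 2.93 ± 0.514 CPM at the Tead3 tile. The F2- and Depp1-led clusters went the other way at that tile, from 3.10 ± 1.43 to 5.64 ± 0.822 CPM, also without overlap. They were mostly cluster 5 in uninjured and mostly cluster 3 in injured libraries. At the Tead1 loss they were lower after injury without overlap (5.82 ± 1.32 and 4.11 ± 0.141 CPM), and at the Amotl2 and Lats2 losses their groups overlapped.

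Fitted on HBC-like barcodes alone, 77 member tiles (17.5%) were called higher and 48 (10.9%) lower of 439 tested. Over all 208204 tiles tested in that fit the shares were 16.9% and 9.2%, so these counts too lie near the background. The Wwtr1 tile then had a log2 change of 4.43 (SE 0.403, adjusted p = 1.18e-05) and the Amotl2 tile of 3.31 (SE 0.328, adjusted p = 2.08e-05). Of the 51 calls made on all barcodes 47 were kept. Because the class was built from these cells' accessibility, and different clusters fill it in the 2 groups, these p-values are not independent of the clustering. These barcodes are also part of the fit from which the named tiles were chosen. Neither the kept calls nor these p-values are thus separate evidence.

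The starts of the wider pathway were read from 2 lists of genes. Of 44 tested windows of 26 other Hippo genes, 0 were called higher and 2 lower, against the 2.47% and 2.34% of all windows given above, with a median log2 change of -0.11. At an unadjusted p under 0.05 edgeR gave 1 higher and 8 lower, against 10.2% and 12.1% of all windows, and DESeq2 called 1 and 2, against 3.86% and 3.53%. The lower ones were Map4k4, an upstream kinase (30.4 ± 0.896 to 24.7 ± 0.800 CPM, log2 change -0.30, adjusted p = 0.0483), and Frmd6, an upstream FERM-domain component (52.8 ± 1.15 to 41.5 ± 4.68 CPM, log2 change -0.35, adjusted p = 0.0343). Of 31 tested windows of 19 other YAP target genes 2 were higher and 1 lower, with a median of 0.04. At an unadjusted p under 0.05 edgeR gave 3 higher and 6 lower there, and DESeq2 called 2 and 1. With so few calls no difference from the shares of all windows is read for either list. Igfbp3, which encodes a growth factor-binding protein, rose from 14.8 ± 1.92 to 23.3 ± 4.68 CPM (log2 change 0.65, SE 0.147, adjusted p = 0.0282). The start in window 3 of Crim1, 150641 bp from its first start, rose from 1.23 ± 0.272 to 4.02 ± 1.22 CPM (log2 change 1.71, adjusted p = 0.0154). The far more open first window of Crim1 read 37.6 ± 1.38 and 33.0 ± 3.61 CPM and was not called (log2 change -0.19, adjusted p = 0.219). Its second window was not called either (log2 change -0.63, adjusted p = 0.406). The classical target Ccn1 (Cyr61) fell, with 56.8, 51.5 and 40.5 CPM before and 37.8, 36.2 and 30.1 CPM after injury (log2 change -0.51, SE 0.123, adjusted p = 0.038). Its partner Ccn2 (Ctgf) read 11.4 ± 2.57 and 8.86 ± 1.36 CPM and was not called (log2 change -0.37, adjusted p = 0.267). The targets thus did not share a direction at their starts.

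The starts whose pattern over the 6 libraries was most like those of the called members were found among the windows of at least 5 CPM, at least 1 Mb away. Likeness was the mean absolute difference of centred log2 CPM. Nearest to Tead3 were Tcf7l2 (0.0392), Ltbr (0.0406) and Tns2 (0.0407). Among those nearest to Lats2 were Gm19684 (0.0353) and Zfp467 (0.0414), and nearest to Tead1 were the neighbouring starts of Gm37419 (0.0502) and Bcl6 (0.0547), and Dvl1 (0.0627).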

How the data were processed

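The authors deposited, per the file headers and the labels, one list of deduplicated fragments per library with the count of read pairs behind each, and a matrix of counts per peak that was not used here because its peaks carry no coordinates. Per the submitters' processing notes the genome build was mm10 and Cell Ranger 2.0.0 was used; the aligner is not given in the sources used here.

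Both ends of each fragment were counted as cut sites over barcodes with at least 2000 fragments and summed per library, since cells are not replicates. Doublets were neither called nor removed. Tiles with a mean CPM of at least 5 times the median tile were called open without regard to group. The mean was over all libraries, so a tile open in a single group could pass. Start windows and open tiles were fitted genome-wide with edgeR 4.0.16 in R 4.3.3 (robust quasi-likelihood F-test after filterByExpr, TMM from the tested features), 3 injured against 3 uninjured libraries, with Benjamini-Hochberg adjustment over all features and a threshold of 0.05. CPM are cut sites per 1000000 effective cut sites, which is the total times the TMM factor, except in cell classes, where the total is that of the class. Means are given ± SD over 3 libraries. Intervals cover 95%.

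Same-numbered libraries share a mouse age in the labels, which name no shared litter, batch or day, and they were not fitted as pairs. The labels call the replicates biological, and p-values measure the spread between these libraries. Cells were clustered with TF-IDF, 30 components of which 29 were used, 15 neighbours and Leiden at resolution 0.5 into 15 clusters, named from marker lists. Cluster 15, of 18 barcodes, stayed unnamed although the sustentacular list was its highest, with a median log2 ratio of 1.387. Named tiles were, per member, the called tile that moved most up and most down (log2), given a mean of 2 CPM or more and separate groups, or else the most open tile outside its own starts. The members and lists were chosen with earlier results of these data known. On simulated data, 36% of start windows changed by a log2 of 0.5 were recovered, 62.5% at 1 and 90.5% at 2, of 200 each. For tiles it was 0%, 2.5% and 35.5%. Only these features were changed, of 24618 windows and 397121 tiles, while the data gave 19235 tiles called higher and 6604 lower. With so few changes the adjustment is stricter, so these shares do not give the recovery of the fits above. Alternatives (DESeq2 1.42.0, scalings, filters, counting, barcode sets, replicate block, left-out libraries) are in the closing section. One gene among the windows most like a member is not reported here.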

Additional observations from a re-analysis of the deposited data

How the results depend on the processing

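Tead3 kept its lower call in every alternative run, and no window or tile called in the main analysis was called in the opposite direction in any alternative. Counts of member start windows called lower (3) became 11 with TMM factors from 10 kb bins and 9 with total cut sites, and ran from 1 to 3 with one library left out. The count called higher by edgeR (0) became 1 with HBC-like clusters plus clusters 3 and 5, an alternative chosen after the data were seen, as was leaving out the shared barcodes. Member tiles called higher and lower (37 and 14) became 24 and 48 with 10 kb bins, 77 and 48 in HBC-like clusters, 56 and 20 with clusters 3 and 5 added (8.56% and 3.06%, against 9.46% and 3.4% of all tiles), 35 and 23 with total cut sites and 50 and 14 with DESeq2 (6.05% and 1.69%, against 6.43% and 1.89%). The lower count became 9 with at least 5000 fragments per barcode and 9 with 0.5 times the filter on mean CPM. With one library left out they ran from 5 to 57 and from 1 to 23. Over all start windows, 607 higher and 575 lower became 951 and 870 with DESeq2, 460 and 11183 with 10 kb bins, 690 and 7100 with total cut sites, 1641 and 1315 in HBC-like clusters, and 130 to 1082 and 62 to 978 with one library left out. Over all tiles, 19235 and 6604 became 13234 and 19971 with 10 kb bins, 35211 and 19146 in HBC-like clusters, and 4343 to 33067 and 491 to 10636 with one library left out. The median over all tiles moved from -0.02 to -0.37 with 10 kb bins.

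With the replicate block 4 member windows were lower, 44 member tiles higher (5.33%, against 5.66% of all tiles) and 18 lower (2.18%, against 2.75%), and 1128 and 1711 of all windows were called. Deviations of same-numbered libraries correlated at 0.048, 0.146 and 0.174 over start windows and at 0.014, 0.175 and 0.21 over tiles. Replicate 1 stayed under 0.1 and not every library correlated best with its own number, so the numbers were not taken as pairing, although they share a mouse age and the replicate 3 libraries share 34 barcodes.

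Several weak windows changed sign, none of them called in the main analysis. The 10 kb bins and total cut sites moved the median of all windows from 0.01 to -0.50 and -0.24, so under them windows with small positive changes turned negative with the rest, and these values show nothing particular to the windows. Ajuba (0.062) gave -0.445 with 10 kb bins, -0.189 with total cut sites, -0.071 in HBC-like clusters and -0.048 to 0.114 with one library left out. With 10 kb bins, Lats2 windows 1 and 4 gave -0.198 and -0.202, Tead1 windows 2 and 4 gave -0.288 and -0.374, and Tead4 window 2 gave -0.142. Total cut sites gave -0.020 and -0.099 at Tead1 windows 2 and 4, the 500 bp window gave 0.680 and -0.030 at Tead1 windows 3 and 4, and HBC-like clusters gave 0.031 at Amotl2 window 3. With one library left out, Lats2 window 1 ran from -0.020 to 0.675, Lats2 window 4 from -0.616 to 0.773, Tead1 window 3 from -0.533 to 0.023 and Tead1 window 4 from -0.078 to 0.412. The cause of the sign changes under the other settings was not tested. On simulated data the tile test recovered 2.5% of tiles changed by a log2 of 1. Far fewer tiles were changed there than were called in the data, which makes the adjustment stricter, so this is not the recovery of the main fit. The parts of depth, spread between libraries and adjustment in this were not tested.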
